A study of Mus musculus with 24 samples.

Results

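The 10 genes described here are Trp53, which encodes p53, and 9 genes that restrain p53 or carry out its responses: Mdm2, Mdm4, Cdkn1a, Ccng1, Bax, Bbc3, Pmaip1, Apaf1 and Sesn2. They were listed by name, with earlier results of these data known, and all 10 were found among the 21883 protein-coding genes of the mouse annotation. At each gene the position and length of called peaks of histone H3 acetylated at lysine 9 (H3K9ac) were read from each library's peak list. The cells were embryoid bodies, the aggregates in which mouse embryonic stem cells differentiate, collected on day 5 from lines of strain C57BL/6. The tested lines carried 2 deleted copies of Gcn5 (Gcn5-/-, called null here) and were clones 6_C4 and 4_C2. The lines they were set against carried 2 floxed copies (Gcn5fx/fx, called fx/fx) and were clones 6_1 and 4_1. Each line is 1 clone, and each clone gave 2 replicate libraries, so each genotype had 4 libraries from 2 clones. Clones 6_C4 and 6_1 form isolate pair 6, and clones 4_C2 and 4_1 form isolate pair 4. Of the 24 samples, 8 were H3K9ac libraries, and the other 16 (total H3 or input DNA) did not enter.

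p53 is a transcription factor that stays scarce while Mdm2 tags it for destruction and Mdm4 masks its activation domain, and it accumulates after DNA damage and other stresses. It then switches on genes that stop the cell cycle, above all Cdkn1a, and genes that open the mitochondrial route to apoptosis, among them Bax, Bbc3 and Pmaip1. H3K9ac lies around the starts of active genes, and Gcn5, the product of Kat2a, is one of the acetyltransferases that place it. In mice, loss of Gcn5 leads to embryonic death with much apoptosis, which loss of p53 partly relieves. The comparison of null with fx/fx lines bears on where H3K9ac differs once Gcn5 is gone.

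The lists held 12041 to 18932 peaks in null libraries and 13260 to 20809 in fx/fx libraries, and they covered 21.8 to 39.4 Mb and 26.7 to 44.3 Mb. Pair 6 lists were the longer ones, with 17849 to 20809 peaks, against 12041 to 15315 in pair 4. The lists give no height or read count, so the sequencing depth is unknown, and depth, peak caller settings and chromatin cannot be told apart in a difference between lists. In a bulk sample, fewer cells with the mark and less of the mark in each cell cannot be told apart either. Kat2a itself had a peak at its start in all 8 lists, and peaks covered 877 to 927 bp of the gene in null libraries, against 1045 to 1771 bp in fx/fx libraries. The labels do not say which part of Gcn5 was deleted, so this peak does not check the genotype. Of the 10171 regions in all 8 lists, 2.42% likewise had fewer base pairs covered in every null library than in any fx/fx library. Of 4 pluripotency markers (Pou5f1, Nanog, Zfp42, Sox2), 2 to 4 had a peak in null lists and 3 to 4 in fx/fx lists. Of 4 primitive streak and mesoderm markers, 1 to 3 had one in null lists and 1 to 4 in fx/fx lists, and of 3 endoderm markers 0 to 3 had one in both. Of 2 neuroectoderm markers, 0 to 1 had a peak in null lists and 1 to 2 in fx/fx lists. Of 4 fibroblast markers, which feeder cells would carry, 0 to 2 had one in null lists and 1 to 3 in fx/fx lists, while Fap had none in any. No marker had a peak in more null than fx/fx lists. Those with a peak in more fx/fx lists were 3 pluripotency, 2 streak and mesoderm, 3 endoderm, 2 neuroectoderm and 3 fibroblast markers. The share of all genes with that direction was not counted. Set by isolate pair, 4 of 4 pluripotency markers had a peak in every pair 6 list and 2 to 4 in pair 4 lists, and 1 to 3 fibroblast markers had one in pair 6 lists and 0 to 1 in pair 4 lists. Among all protein-coding genes, 56.3 to 59.0% had a peak at a gene end in pair 6 lists and 47.5 to 55.5% in pair 4 lists. The part of cell makeup in the results below was not tested.

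H3K9ac was found at the starts of p53 pathway genes with Gcn5 and without it. Trp53, Mdm2, Bax, Bbc3, Pmaip1, Ccng1, Apaf1 and Sesn2 had a peak within 1 kb of a gene start or end in all 8 libraries. Of all protein-coding genes, 45.3% did. Cdkn1a had one in 4 libraries, and Mdm4 had none in any library at its outermost annotated ends, as was the case for 37.8% of all genes. Each null library therefore had such a peak at 8 or 9 members and each fx/fx library at 8 or 9, with a mean of 8.5 in both. No member had one in all libraries of 1 genotype and in none of the other, a split seen at 0% (null alone) and 0.0734% (fx/fx alone) of the 13618 genes with an end peak in any list. For 9 members the annotation gives the strand, and in each of these with an end peak the peak lay at the start. Beyond the start, a peak within 1 kb of the gene's far end was seen at Bax in 7 libraries, where it belongs to a region over the neighbouring gene Ftl1, and at Trp53 in the list of 4_C2 replicate 1.

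The sequence just upstream of the 2 annotated starts of Cdkn1a and of Mdm4 is shown because these are the members where H3K9ac covered one start and skipped or only partly covered the other. Sequences are from RefSeq, on assembly GRCm38.p6 (mm10), 250 bases ending at the base before the start, 5′ to 3′ on the gene's strand. Capitals mark CpG dinucleotides.
Cdkn1a outer start, chr17:29090729-29090978, + strand: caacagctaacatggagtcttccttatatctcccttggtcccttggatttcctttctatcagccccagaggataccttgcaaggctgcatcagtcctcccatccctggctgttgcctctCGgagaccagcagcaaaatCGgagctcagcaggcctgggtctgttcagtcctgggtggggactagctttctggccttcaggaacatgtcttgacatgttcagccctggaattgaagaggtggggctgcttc
Cdkn1a inner start, chr17:29093519-29093768, + strand: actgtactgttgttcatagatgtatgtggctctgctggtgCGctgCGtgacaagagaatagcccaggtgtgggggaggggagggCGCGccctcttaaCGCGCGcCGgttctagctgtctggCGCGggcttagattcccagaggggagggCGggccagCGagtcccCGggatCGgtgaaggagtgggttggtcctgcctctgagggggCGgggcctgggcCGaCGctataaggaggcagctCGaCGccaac
Mdm4 outer start, chr1:133030588-133030837, - strand: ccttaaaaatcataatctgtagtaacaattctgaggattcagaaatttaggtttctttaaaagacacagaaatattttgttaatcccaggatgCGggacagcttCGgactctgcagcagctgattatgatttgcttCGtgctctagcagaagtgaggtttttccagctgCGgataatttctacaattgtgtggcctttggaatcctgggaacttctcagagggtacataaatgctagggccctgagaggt
Mdm4 inner start, chr1:133025417-133025666, - strand: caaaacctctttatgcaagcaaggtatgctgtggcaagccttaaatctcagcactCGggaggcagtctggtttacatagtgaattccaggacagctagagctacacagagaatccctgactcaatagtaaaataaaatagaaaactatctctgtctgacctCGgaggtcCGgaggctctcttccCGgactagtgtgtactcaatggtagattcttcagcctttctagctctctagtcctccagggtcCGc

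The 2 starts of Cdkn1a differed widely in CpG content and those of Mdm4 little. The outer Cdkn1a stretch above holds 2 CpG and the inner one 19, and the outer Mdm4 stretch holds 4 and the inner one 5. Counted over the whole 300-base window that RefSeq's table gives around a start, 250 bases before it and 50 from it on, the outer and inner Cdkn1a starts hold 2 and 23 CpG, and the outer and inner Mdm4 starts 4 and 9. Over all annotated starts, windows covered in all 8 lists held a median of 24 CpG (quartiles 17 and 32), against 3 (quartiles 1 and 5) in windows covered in none. Of starts with under 5 CpG, 0.801% were covered in all 8 lists and 95.1% in none. The other members' starts, all covered in all 8 lists, held from 10 CpG at Trp53 to 46 at Apaf1, and the inner Mdm4 start, with 9, was the poorest of the starts covered in all 8.

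**Figure D1:**
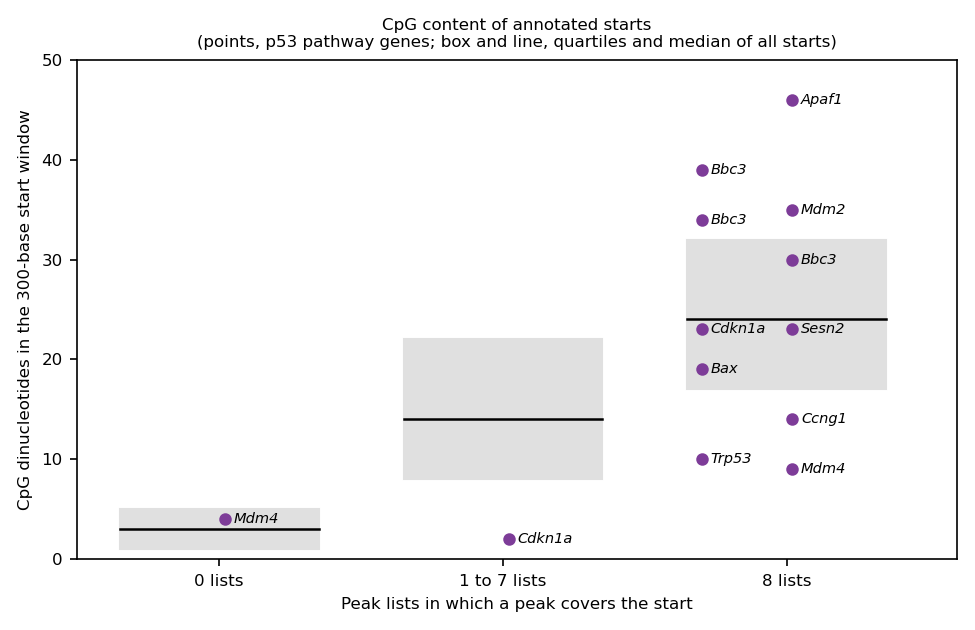
CpG dinucleotides in the 300-base window around each annotated start (vertical axis), for starts covered by a peak in 0, in 1 to 7 or in all 8 lists (horizontal axis). Points are the 13 annotated starts of 9 members, and grey boxes with a line give the quartiles and median of all starts in that class: Cdkn1a stands at 2 and 23 CpG and Mdm4 at 4 and 9.

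The letters of the p53 half-site consensus, the 10-base motif of which p53 binds a pair, were searched on both strands of the same windows. They were found at 5 of the 13 member starts, 6 matches in all, and in 8.36% of all 32841 windows. The matches are shown because the motif is that of p53 itself, with the match in capitals, 10 flanking bases on each side, and RefSeq coordinates of the whole stretch on mm10. A match is a description of the sequence, and binding was not measured.
Trp53, chr11:69580274-69580303, + strand: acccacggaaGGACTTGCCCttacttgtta
Mdm2, chr10:117710925-117710954, - strand: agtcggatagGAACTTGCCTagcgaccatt
Cdkn1a outer start, chr17:29090896-29090925, + strand: tcctgggtggGGACTAGCTTtctggccttc
Cdkn1a outer start, chr17:29090918-29090947, + strand: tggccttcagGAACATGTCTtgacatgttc
Ccng1, chr11:40755452-40755481, - strand: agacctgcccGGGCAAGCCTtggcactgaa
Bax, chr7:45467080-45467109, - strand: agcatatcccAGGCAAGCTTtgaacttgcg
The outer Cdkn1a window is the member window with 2 matches, at positions -73 and -51 from the start, and 0.359% of all windows held 2 or more. Among all windows, 5.91% of those covered in all 8 lists and 9.81% of those covered in none held a match.

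Trp53, the gene of p53, lay in a broad acetylated region (chr11:69576430-69588271) that also spans the start of Wrap53, its divergent neighbour. The covered length, which is the number of base pairs of a region under peaks in 1 library, was 6322 and 8306 bp in 6_C4 and 9063 and 6583 bp in 4_C2, the null clones. It was 9015 and 9789 bp in 6_1 and 6962 and 8906 bp in 4_1, the fx/fx clones. The genotypes overlapped, with a null mean of 7569 ± 1329 bp and an fx/fx mean of 8668 ± 1203 bp (SD, n = 4 each). Most of the spread came from separate peaks inside the gene, as the map of peaks around Trp53 shows. The peak over the start itself reached 3172 and 3383 bp upstream, toward Wrap53, in 6_C4 and 3511 and 3396 bp in 4_C2. In fx/fx libraries it reached 3506 and 3755 bp in 6_1 and 3896 and 3929 bp in 4_1. Within each isolate pair both null libraries were shorter than both fx/fx libraries, and across pairs the groups overlapped narrowly. The fitted difference was -406 ± 82.5 bp (SE) and did not pass (limma, adjusted p = 0.530, unadjusted p = 0.00181), beside a median of -74.5 bp over all 10297 starts tested. Here and below, extents from a start were fitted in bp as they stood, so a shift common to all starts remains in each value. No start of any gene passed in either direction on the upstream side (0%), with 37 longer (0.359%) and 839 shorter (8.15%) in null at an unadjusted p under 0.05. At 2.22% of all starts every null library was shorter upstream than every fx/fx library, a stricter split that Trp53 did not meet. The share of starts with the split within each pair was not counted, so how common the Trp53 pattern is stays unknown.

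**Figure D2:**
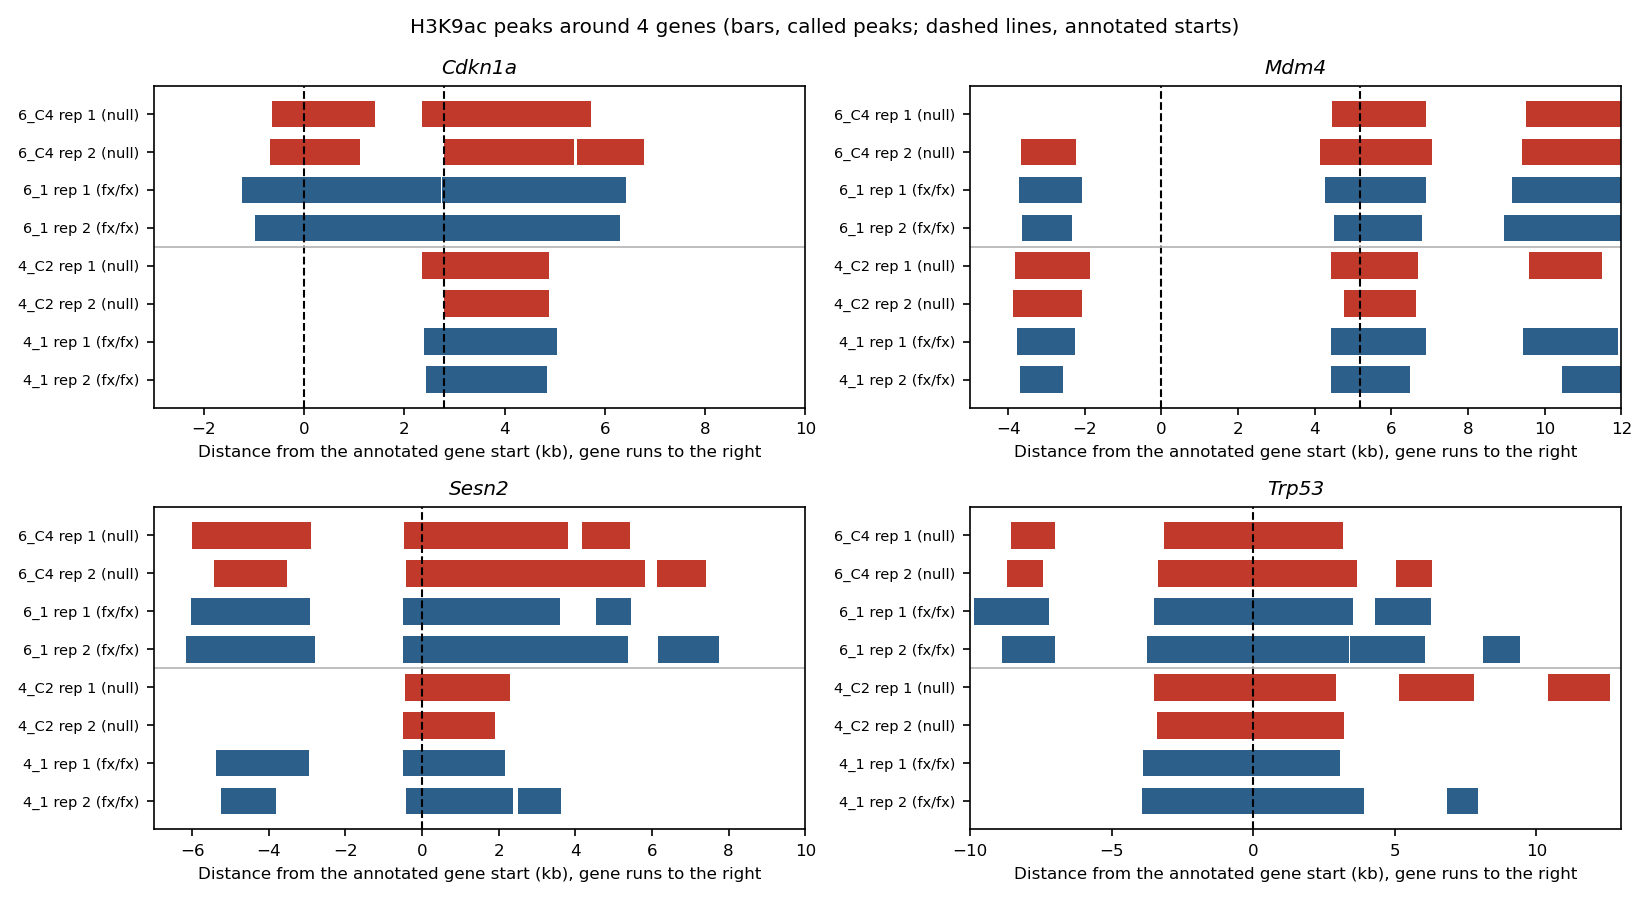
Called H3K9ac peaks (bars; red null, blue fx/fx) in each of the 8 lists around Cdkn1a, Mdm4, Sesn2 and Trp53, with distance in kb from the gene's outermost annotated start, the gene running to the right, and dashed lines at annotated starts. The 4 lists of pair 6 hold a peak over the outer Cdkn1a start and the 4 of pair 4 none, and no list has one over the outer Mdm4 start.

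Mdm2, the ubiquitin ligase that degrades p53 and is itself a p53 target, had 1 compact region over its start (chr10:117708420-117712761). Its covered length was 4075 and 3865 bp in 6_C4 and 3275 and 2986 bp in 4_C2, against 3910 and 4201 bp in 6_1 and 3274 and 3572 bp in 4_1. The genotypes overlapped, while every pair 6 library exceeded every pair 4 library, as was the case at 29.7% of all regions. On the centred log2 scale defined with the genotype comparison below, the pair difference was 0.03 ± 0.08 (SE; limma, adjusted p = 0.861). On the upstream side the start peak reached 1728 to 1736 bp in 6_C4 and 1810 to 2003 bp in 6_1, against 1220 to 1372 bp in 4_C2 and 1322 to 1336 bp in 4_1. That side was longer in pair 6 than in pair 4 by 507 ± 70.3 bp (SE; limma, adjusted p = 0.0163), with 3.6% of all 10297 starts called longer upstream in pair 6 and a median of 150 bp over all starts. The call was lost without 4_C2 replicate 2 (adjusted p = 0.0560) and without 4_1 replicate 2 (adjusted p = 0.0597). A separate upstream region (chr10:117716690-117719037) held a peak in all 4 pair 6 lists and in 1 of pair 4, 4_C2 replicate 1.

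Mdm4, which binds p53 and blocks its activity, had no peak over its outermost start, and its H3K9ac sat at a second annotated start inside the gene (chr1:133023528-133026450). The covered length there was 2464 and 2923 bp in 6_C4 and 2275 and 1904 bp in 4_C2, against 2638 and 2306 bp in 6_1 and 2489 and 2062 bp in 4_1. The null mean of 2392 ± 424 bp nearly matched the fx/fx mean of 2374 ± 248 bp (SD, n = 4 each). Further into the gene (chr1:133017422-133021656) a peak of 1683 to 4235 bp was called in every list except that of 4_C2 replicate 2, and upstream of the gene (chr1:133032453-133034466) 1 of 1117 to 1951 bp in every list except that of 6_C4 replicate 1.

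Cdkn1a encodes p21, the inhibitor of cyclin-dependent kinases through which p53 arrests the cell cycle, and among the members it varied most across libraries (SD of centred log2 width 0.624). Its region (chr17:29089740-29097756) had a covered length of 5423 and 5756 bp in 6_C4 and 2549 and 2102 bp in 4_C2, against 7644 and 7279 bp in 6_1 and 2671 and 2430 bp in 4_1. The genotypes overlapped, and the isolate pairs stood far apart. Pair 6 averaged 6526 ± 1099 bp and pair 4 averaged 2438 ± 245 bp (SD, n = 4 each), a ratio of 2.68. The difference held inside each genotype, at 1.00 between the null clones and 1.29 between the fx/fx clones on the centred log2 scale defined with the genotype comparison below.

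The extra length in pair 6 came mostly from the outer start. No pair 4 list had a peak there, whereas in pair 6 a peak covered it in all 4 lists. Of the 13618 genes with an end peak in any list, 1.01% had one in all 4 lists of pair 6 and in none of pair 4, and so did 1.08% of the annotated starts covered in any list. In 6_C4 this peak ran from 645 and 690 bp upstream to 1421 and 1118 bp downstream of the outer start. In 6_1 it ran from 1239 and 973 bp upstream to 2726 and 2668 bp downstream, where it met the peak over the inner start. Joined across gaps of up to 500 bp, the fx/fx peaks of pair 6 formed 1 stretch reaching 6419 and 6309 bp downstream of the outer start, while those of the null clone stayed separate. With 2 libraries of 1 clone on each side, this difference between 6_C4 and 6_1 has no test.

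The peak over the inner Cdkn1a start was present in all 8 lists and also reached further into the gene in pair 6. Its downstream side measured 2925 and 2596 bp in 6_C4 and 3629 and 3519 bp in 6_1, against 2103 and 2098 bp in 4_C2 and 2264 and 2061 bp in 4_1. Pair 6 was longer by 1036 ± 169.9 bp (SE; limma, adjusted p = 0.0216), beside a median of 192.75 bp over all starts, and 8.71% of all starts were called longer downstream in pair 6. That call was lost without 6_1 replicate 2 (adjusted p = 0.0518), without 4_1 replicate 1 (adjusted p = 0.0570) and without 4_1 replicate 2 (adjusted p = 0.0580). Between genotypes the same side differed by -438 ± 169.9 bp and did not pass (limma, adjusted p = 0.408). On the downstream side too no start passed for genotype (0%), with 27 longer (0.262%) and 1150 shorter (11.2%) in null at an unadjusted p under 0.05. These counts keep the shift common to all starts, whose median downstream difference was -107.75 bp (null minus fx/fx). The source of that shift was not tested.

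Ccng1, which encodes cyclin G1 and is among the earliest known p53 targets, showed no separation by genotype or by pair. Its covered length (chr11:40752111-40756601) was 3628 and 2739 bp in 6_C4 and 3652 and 2509 bp in 4_C2, against 3011 and 4384 bp in 6_1 and 3769 and 2979 bp in 4_1. Replicates of 1 clone lay as far apart as clones did. No other region was called within 10 kb of it.

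The 3 apoptosis inducers of the Bcl-2 family, Bax, Bbc3 and Pmaip1, carried H3K9ac in every library and were longer in every pair 6 library than in any pair 4 library, as were 29.7% of all regions. Bax, which permeabilizes the outer mitochondrial membrane, had a covered length (chr7:45464152-45467982) of 3102 and 2896 bp in 6_C4 and 2486 and 1992 bp in 4_C2, against 3680 and 3831 bp in 6_1 and 2687 and 2323 bp in 4_1. Its null mean was 2619 ± 490 bp and its fx/fx mean 3130 ± 740 bp (SD, n = 4 each), with overlapping libraries. In both pairs the clone mean was lower in null, 2999 bp in 6_C4 against 3755.5 bp in 6_1, and 2239 bp in 4_C2 against 2505 bp in 4_1. Downstream of its start the Bax peak was longer in pair 6 than in pair 4 by 619 ± 119 bp (SE; limma, adjusted p = 0.0307), a call kept when 4_C2 replicate 1 was left out and lost when any other single library was (adjusted p = 0.0560 to 0.0866). Over all starts the median downstream difference was 192.75 bp, and 8.71% were called longer in pair 6.

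Bbc3 encodes Puma, a BH3-only protein that p53 induces, and it had the longest region of the apoptosis genes (chr7:16307903-16315106). Its covered length was 6948 and 6869 bp in 6_C4 and 5806 to 6454 bp in 4_C2, against 7086 and 7175 bp in 6_1 and 6340 to 6622 bp in 4_1. The spread within a group was small, with an SD of 137 bp in pair 6 and 353 bp in pair 4. Its 3 annotated starts lie within 1 region and were covered in all 8 lists. Upstream of them the peak was longer in pair 6 than in pair 4 by 452 ± 65.4 bp (SE; limma, adjusted p = 0.0176), a call lost without 6_C4 replicate 1, 6_1 replicate 2 or 4_1 replicate 2 (adjusted p = 0.0508 to 0.0618). Over all starts the median upstream difference was 150 bp, and 3.6% were called longer in pair 6. The covered length of the Bbc3 region, on the centred log2 scale, stood at -0.11 ± 0.07 (pair 6 minus pair 4, SE; limma, adjusted p = 0.394). A second region further upstream (chr7:16299177-16300682) held peaks of 1242, 1202, 1495 and 1430 bp in the 4 pair 6 lists and none in pair 4. Of all 26034 regions, 2.85% showed that split.

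Pmaip1 encodes Noxa, another BH3-only protein, and its peak lay at the gene's lower-coordinate end (chr18:66456577-66461372). Its strand was not taken from the annotation used here, so its start is not named. The covered length was 3835 and 3619 bp in 6_C4 and 2798 and 1298 bp in 4_C2, against 4648 and 4001 bp in 6_1 and 2977 and 2150 bp in 4_1. The list of 4_C2 replicate 2, the shortest of the 8 lists, gave the lowest value. The mean was 4026 ± 443 bp in pair 6 and 2306 ± 760 bp in pair 4 (SD, n = 4 each).

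Apaf1, the scaffold of the apoptosome that activates caspase 9, had the shortest region (chr10:91081443-91083940), shared with the start of its divergent neighbour Ikbip. The covered length was 2109 and 2429 bp in 6_C4 and 2297 and 1258 bp in 4_C2, against 2374 and 2274 bp in 6_1 and 2406 and 2393 bp in 4_1. The fx/fx libraries lay close together, at 2362 ± 60.0 bp, and the null libraries at 2023 ± 527 bp (SD, n = 4 each). The lowest value, in 4_C2 replicate 2, came from the shortest of the 8 lists, and the other 3 null libraries lay between 2109 and 2429 bp.

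Sesn2, a stress-induced restrainer of mTORC1 signalling, showed the second largest difference between isolate pairs. Its covered length (chr4:132504648-132510956) was 5526 and 6236 bp in 6_C4 and 2741 and 2392 bp in 4_C2, against 5036 and 5850 bp in 6_1 and 2651 and 3899 bp in 4_1. Pair 6 averaged 5662 ± 508 bp and pair 4 averaged 2921 ± 669 bp (SD, n = 4 each), a ratio of 1.94, and the genotypes overlapped. The difference lay on 1 side of the start. Upstream the peak ended 415 to 500 bp from the start in all 8 lists. Downstream it reached 3803 and 5808 bp in 6_C4 and 3600 and 5361 bp in 6_1, against 2288 and 1895 bp in 4_C2 and 2159 and 2362 bp in 4_1. Over all starts the median downstream difference was 192.75 bp, and 8.71% were called longer in pair 6. At Sesn2 that side was longer in pair 6 by 2467 ± 521 bp (SE; limma, adjusted p = 0.0364). The call was lost without 6_1 replicate 2 and without any 1 of the 4 pair 4 libraries (adjusted p = 0.0684 to 0.103). It was also lost with peaks joined across gaps of up to 500 bp (2957 ± 787 bp, adjusted p = 0.0605), where 4_1 replicate 2 reached 3622 bp and 6_1 replicate 1 reached 3600 bp. A region upstream of Sesn2 (chr4:132513248-132516616) held peaks of 3105 and 1885 bp in 6_C4 and none in either 4_C2 list, against 3112 and 3369 bp in 6_1 and 2424 and 1426 bp in 4_1. It was thus absent from both libraries of 1 null clone and present in both of the other.

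**Figure D3:**
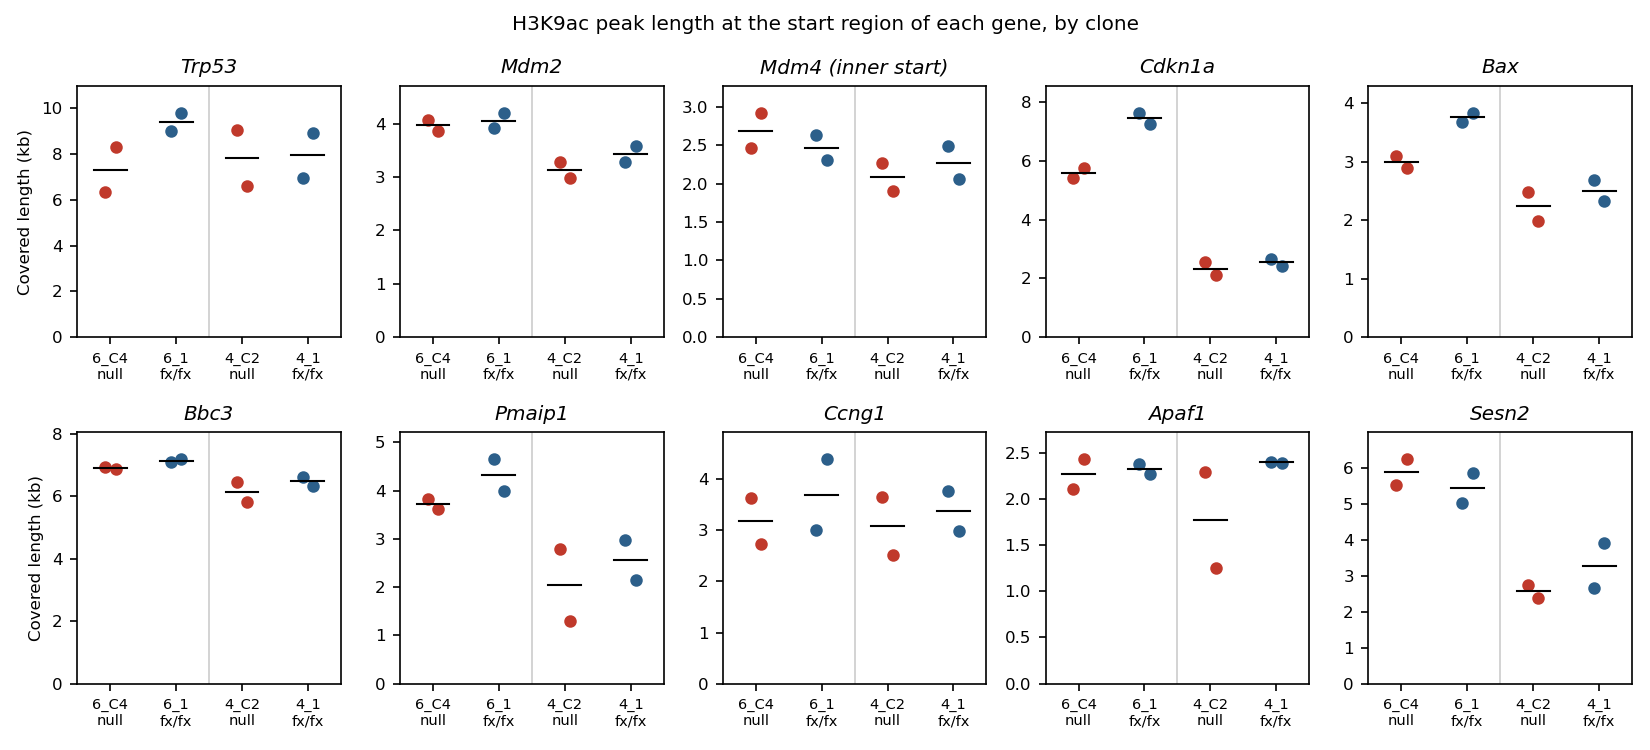
Covered length (kb) of the H3K9ac region at the start of each of the 10 genes, 1 point per library (red null, blue fx/fx) with clone means as lines, pair 6 left of the grey divider and pair 4 right of it. Null and fx/fx libraries overlap at every gene, and the pairs separate most at Cdkn1a, with means of 6526 bp in pair 6 and 2438 bp in pair 4.

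In covered length, no member differed between null and fx/fx lines beyond the spread between libraries. Covered lengths were taken to log2 and centred on each library's median region, which removes a shift of -0.14 (null minus fx/fx) common to all regions, and 10171 regions present in all 8 lists were fitted with genotype and isolate pair as terms. None of them was called wider or narrower in null (0% each way; limma, adjusted p under 0.05), while 378 wider (3.72%) and 327 narrower (3.22%) had an unadjusted p under 0.05. At every member null and fx/fx libraries overlapped in covered length, whereas at 2.42% of all regions every null library lay below every fx/fx library. The member regions that met this filter at a gene start or end number 9, and the inner Mdm4 region was read from the same fit. The widest difference was at Pmaip1, -0.17 ± 0.17 (SE; limma, adjusted p = 0.833), and the smallest p belonged to Cdkn1a, at -0.14 ± 0.09 (limma, adjusted p = 0.759). Trp53 stood at -0.07 ± 0.14, Mdm2 at 0.06 ± 0.08, Mdm4 at 0.14 ± 0.11 and Sesn2 at 0.03 ± 0.15. Of the apoptosis genes, Bax stood at -0.11 ± 0.08, Bbc3 at 0.07 ± 0.07 and Apaf1 at -0.13 ± 0.15, and Ccng1 at -0.04 ± 0.14. The median over the 9 was -0.07, with 6 below 0, and it was 0.02 over all regions. Without 4_C2 replicate 2 the members' median was 0.01 with 3 of 9 below 0. Without centring, the values of Mdm2, Bbc3 and Sesn2 became -0.08, -0.06 and -0.11, and the common shift stood in all of them. All 9 members then lay below 0, with a median of -0.20 beside -0.12 over all regions. Centring removes a shift common to all regions whatever its source, and the source was not tested.

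Whether the effect of Gcn5 loss differed between the isolate pairs was tested with an interaction term. No region was called (0%; limma, 281 or 2.76% more positive and 396 or 3.89% more negative in pair 6 at an unadjusted p under 0.05), and the members' adjusted p ran from 0.802 to 0.991. Within pair 6 the null minus fx/fx difference was -0.29 at Cdkn1a, -0.25 at Trp53 and 0.24 at Sesn2, and within pair 4 it was 0.01 at Cdkn1a, 0.12 at Trp53 and -0.18 at Sesn2. Apaf1 stood at 0.09 within pair 6 and at -0.35 within pair 4.

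**Figure D4:**
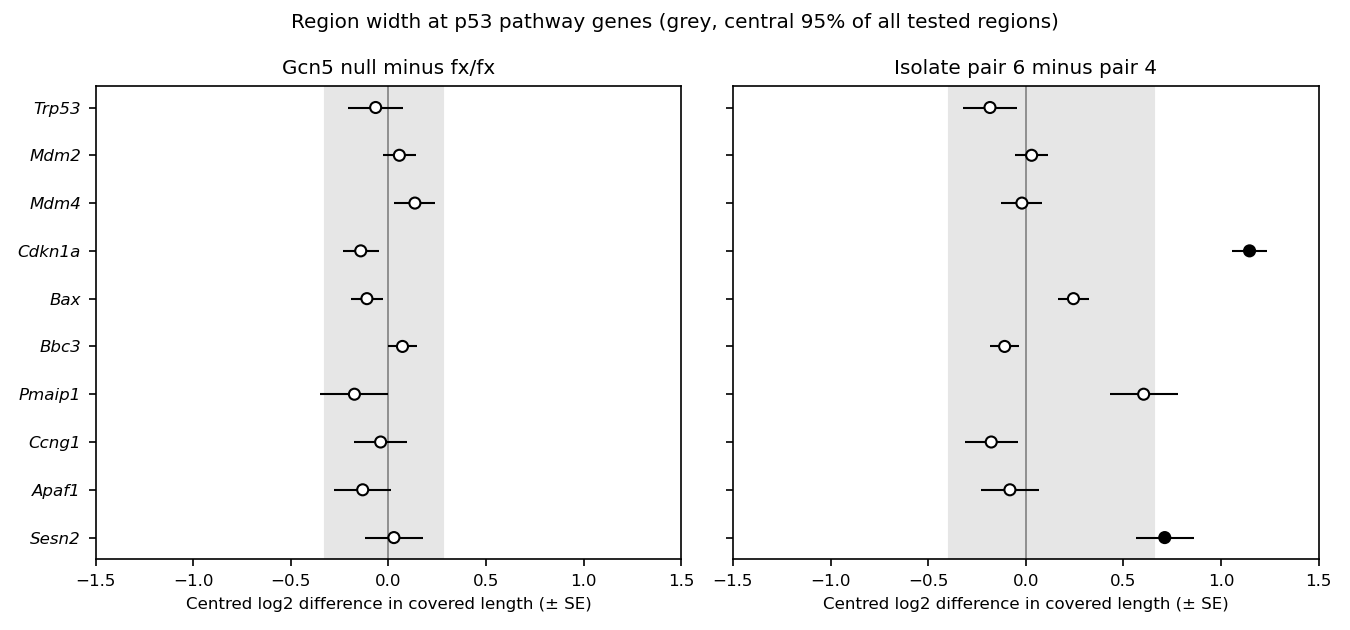
Fitted centred log2 difference in covered length with its SE for each gene, null minus fx/fx on the left and isolate pair 6 minus pair 4 on the right. Grey bands hold the central 95% of all tested regions and filled points passed an adjusted p of 0.05: none on the left, and Cdkn1a (1.15) and Sesn2 (0.71) on the right.

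Between the isolate pairs, 2 of the 9 members were called wider in pair 6 and none narrower, where 439 (4.32%) of all 10171 regions were called wider and 256 (2.52%) narrower. Without centring, 5 of the 9 were called wider, among 2724 regions wider and 22 narrower: Mdm2 (0.29, adjusted p = 0.0340), Bax (0.51, adjusted p = 0.0119) and Pmaip1 (0.87, adjusted p = 0.0233) passed beside Cdkn1a and Sesn2. Cdkn1a was wider by 1.15 ± 0.09 on the centred log2 scale (SE; limma, adjusted p = 0.000256), and was 1.09 or more whichever library was left out. Sesn2 was wider by 0.71 ± 0.15 (limma, adjusted p = 0.0246), and its call was lost when any 1 of 6 libraries was left out, all but 6_1 replicate 1 and 4_1 replicate 2 (adjusted p = 0.0605 to 0.0754). Pmaip1, at 0.60 ± 0.17 (limma, adjusted p = 0.0679), did not pass, and passed without 4_C2 replicate 1 (adjusted p = 0.0337). Bax stood at 0.24 ± 0.08 (limma, adjusted p = 0.100). The other 5 members lay between -0.18 at Trp53 and 0.03 at Mdm2, and the inner Mdm4 region at -0.02. Before centring, pair 6 regions were longer by 0.26 in the median, and on base pairs Mdm2, Cdkn1a, Bax, Bbc3, Pmaip1 and Sesn2 were longer in every pair 6 library than in any pair 4 library (exact permutation test, 2-sided p = 0.0286, the smallest that 4 against 4 can give). This is the split seen at 29.7% of all regions. The permutation test treats the 8 libraries as independent, although each pair is 2 clones with 2 libraries each. Its p therefore does not measure the spread between clones. Since pair 6 lists were the longer ones, a difference in depth or calling and a difference between the clones cannot be told apart. Peaks at cell type markers were counted by pair too, with ranges that overlapped. Of the 4 streak and mesoderm markers, 3 to 4 had one in pair 6 lists and 1 to 4 in pair 4 lists. Of the 3 endoderm markers, it was 2 to 3 and 0 to 3, and of 3 primed epiblast markers 3 and 2 to 3. Among all protein-coding genes, 56.3 to 59.0% had an end peak in pair 6 lists and 47.5 to 55.5% in pair 4 lists. The streak marker T had a peak in 2 lists of each pair. Thy1, a fibroblast marker, had one in 3 pair 6 lists and 0 pair 4 lists, and Fap had none.

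The gene regions whose widths followed Cdkn1a most closely over the 8 libraries were those of Irf2bp1, Mybl2 and Fam169a, with Pearson's r of 0.987, 0.984 and 0.983. All 8 points come from the same 8 lists, and these 3 were picked as the highest of all regions.

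Around the members, within 10 kb of the gene and apart from the start regions, 20 further regions were called, at 7 of the 10 genes. Pmaip1, Ccng1 and Apaf1 had none. Of the 20, 12 were seen in pair 6 lists alone, as were 33.7% of all regions, and 1 in pair 4 lists alone, as were 5.81%. By genotype, 7 were seen in null lists alone, as were 12.8% of all regions, and 2 in fx/fx lists alone, as were 16.9%. Of the 20, 9 were each seen in only 1 list, and this was not the same list for all of them. The share of all regions seen in only 1 list was not counted. Apart from the upstream Bbc3 region, 1 other was present in all 4 pair 6 lists and in none of pair 4, a region inside Wrap53 upstream of Trp53 (chr11:69570480-69573370) with 1559 and 1278 bp in 6_C4 and 2675 and 1868 bp in 6_1. None of the 20 was in all lists of 1 genotype and in none of the other.

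Other genes of the p53 pathway likewise showed H3K9ac in both genotypes. Among 21 genes that act on p53 or belong to its family, 17 had an end peak in all 8 lists and 2 in none, Usp7, which had one at another annotated start, and Trp63. Of the 17 with a tested region, none was called for genotype, with a median of -0.03 and 14 below 0. The median over all regions was 0.02, and the share of all regions below 0 was not counted. The 17 include Wrap53, whose region is that of Trp53 and so repeats its value of -0.07. Trp73, a p53 homologue, had a peak in 3 null and 4 fx/fx lists. The ribosomal protein gene Rpl11, whose product binds Mdm2, stood at -0.19 ± 0.13, Npm1 at -0.17 ± 0.15 and the phosphatase gene Ppm1d at 0.16 ± 0.08. All of these are centred log2 differences, null minus fx/fx.

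Among 12 cell cycle arrest and DNA repair targets, 10 had an end peak in all 8 lists. None of the 10 tested was called for genotype, and their median was -0.11 with 7 below 0. The kinase gene Plk3 stood at -0.26 ± 0.16, the antiproliferative gene Btg2 at -0.23 ± 0.12, Pcna, the replication clamp, at -0.17 ± 0.14 and Rrm2b, a ribonucleotide reductase subunit, at -0.15 ± 0.14. All 10 stress and metabolism targets had an end peak in all 8 lists, with a median of -0.02, 5 below 0 and no call. Phlda3, an inhibitor of Akt, stood at 0.18 ± 0.09, Sco2 at -0.17 ± 0.14, Ddit4 at 0.15 ± 0.15 and Trp53inp1 at 0.13 ± 0.10.

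Among 20 further genes of the apoptosis machinery, 17 had an end peak in all 8 lists, and Fas and Xiap had none, though Xiap had one at another annotated start. None of the 18 tested was called for genotype, and the median was 0.00 with 9 below 0. The nuclease gene Aen showed the largest difference of all these lists, 0.41 ± 0.10, and did not pass (limma, adjusted p = 0.714). Bak1, the partner of Bax at the mitochondrial membrane, stood at 0.31 ± 0.13 (limma, adjusted p = 0.716) and Ei24 at -0.19 ± 0.11. Bcl2l1, which opposes Bax, had an end peak in no null list and in 1 fx/fx list. Its value of -0.13 ± 0.21 is that of a region present in all 8 lists. That region came within 1 kb of the gene end in the 1 list alone, so the value does not describe H3K9ac at the end itself. Between isolate pairs, Plk3 at 1.01 ± 0.16 (limma, adjusted p = 0.00872) and Gtse1 at 0.82 ± 0.16 (limma, adjusted p = 0.0191) were wider in pair 6 than in pair 4. Aen at -0.63 ± 0.10 (limma, adjusted p = 0.00767) and Ppm1d at -0.33 ± 0.08 (limma, adjusted p = 0.0420) were narrower in pair 6. These were 2 of 10 tested arrest and repair targets, 1 of 18 apoptosis genes and 1 of 17 genes that act on p53. None of the 10 stress and metabolism targets was called. Over all 10171 regions, 4.32% were called wider and 2.52% narrower in pair 6.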

How the data were processed

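The authors deposited a peak list per H3K9ac library, with chromosome, start and end and no score or height. Per the submitters' processing notes, Bowtie 1.1.2, MACS 1.4.2 and mm10 were used. Neither the calling threshold nor the control library is given in the sources used here, and either can change how many peaks are called and how wide they are. Peaks were converted to positions counted from 1. Peaks of all 8 lists overlapping by 1 bp or more were joined, giving 26034 regions, and each region's covered length was computed per library. Gene ends came from RefSeq's table and strands and starts from its promoter table (GRCm38.p6). A gene's region was that overlapping 1000 bp either side of its start, or of either end for genes without a strand. Log2 covered lengths of the 10171 regions present in all 8 lists, and peak extents in bp from 10297 starts, were fitted with limma 3.58.1 in R 4.3.3 on genotype and isolate pair, with Benjamini-Hochberg adjustment. Covered lengths were centred on each library's median and extents were not. The scripts were tested on simulated data. All 10 members were named, up to 4 genes of each other list by the largest difference between genotypes in lists with a peak and then in width, and the 3 regions most like the most variable member. Genes of the other lists that were called between isolate pairs were named as well. Members and lists were chosen with earlier results of these data known. The design text speaks of 4 independent experiments, but p-values measure only the spread between these libraries, 2 per clone. No peak list repeated another, since any 2 lists shared at most 1 peak with identical ends. The inner start of Mdm4, peaks joined across gaps, the largest region at either gene end and a block by experiment were alternatives chosen after seeing the data.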

Additional observations from a re-analysis of the deposited data

How the results depend on the processing

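No member passed for genotype under any alternative (160 width values, lowest adjusted p 0.367). The number of members with a peak differed by 0 between genotypes, by 0.25 with wider windows and by -0.17 to 0.17 with each library left out. The members' median of -0.07 was -0.20 without centring, with 9 of 9 below 0, beside a median of -0.12 over all regions. With each library left out it was -0.14 to 0.012. The count of regions called for genotype, 0, was 17, all narrower in null, when regions in at least 4 lists were kept with a pseudocount of 100 bp, where absent peaks enter as values, and 0 to 1 with each library left out. The interaction count, 0, was 346 with that pseudocount and 0 to 1 leave-one-out. The pair count, 695, was 2746 without centring, 1428 with the pseudocount and 314 to 498 leave-one-out. Starts called for genotype on either side, 0, were 3 on the log2 scale and 0 to 9 leave-one-out, all shorter in null.

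Signs near 0 turned. Without centring, the genotype values became -0.080 at Mdm2, -0.00027 at Mdm4, -0.064 at Bbc3 and -0.11 at Sesn2, and the pair values 0.081 at Trp53, 0.24 at Mdm4, 0.16 at Bbc3, 0.088 at Ccng1 and 0.18 at Apaf1. With the pseudocount Mdm2's pair value was -0.042. Leave-one-out, the genotype values ranged from -0.19 to 0.056 at Trp53, -0.33 to 0.012 at Pmaip1, -0.13 to 0.064 at Ccng1, -0.22 to 0.033 at Apaf1 and -0.059 to 0.20 at Sesn2, and the pair values from -0.0051 to 0.079 at Mdm2 and -0.098 to 0.053 at Mdm4. Without centring Mdm2, Bax and Pmaip1 also passed between pairs. The pair call at Sesn2 was lost with the pseudocount (adjusted p = 0.0911) and with lists cut to equal length (adjusted p = 0.111). The cut kept the widest peaks of each list, so it selects on width and is no control for depth. The cause of these changes was not tested.

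The replicate block called 0 regions for genotype, with 675 at an unadjusted p under 0.05 against 705 without it. Deviations of same-numbered libraries correlated at 0.109 within pair 4 and 0.0624 within pair 6, and between pairs at -0.0258 to 0.0267, so the numbers are not shown to pair libraries. Unknown depth limits every statement on absent peaks.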
